A study of Mus musculus with 6 samples.

Results

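Immediate early and heat shock genes were followed in cells sorted from the limb skeleton of newborn mice. The set holds 36 named genes of 18193 genes on the arrays, 28 immediate early genes and 8 heat shock genes, and all 36 were measured. A gene was read from 1 probe set, a group of short probes for a transcript, among those annotated to that gene alone, and where there were several the one with the highest mean over the 6 arrays was taken. Heat shock genes, whose names start with Hsp or Dnaj, were kept apart from the immediate early genes throughout. The 6 samples came from fore and hind limbs of mice at postnatal day 3, pooled by litter, and were 3 arrays of CD45- Ter119- Itgav- Tie2- cells (called Tie2-negative here) and 3 of CD45- Ter119- Itgav low Tie2+ cells (called Tie2-positive). Both gates were set against CD45, an antigen of white blood cells, and Ter119, an antigen of the red-cell line, and they differed in integrin alpha V and in Tie2, the angiopoietin receptor of endothelial cells. The labels name the genotype as wild type, whereas the protocol speaks of mice labelled with GFP. The labels name no treatment. Per the labels, all 6 samples were freed with collagenase at 37 °C for 40 minutes before staining and sorting, and no undigested tissue was compared. The sources do not say if the arrays of a population stand for different litters, and a p-value here measures only how these samples scatter, in part perhaps for technical reasons. Levels are log2 expression values, on which 1 unit is a doubling, and each p is from limma.

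Immediate early genes are transcribed within minutes of a stimulus without new protein synthesis, because the factors that switch them on are already present in the cell. Many of them encode transcription factors, such as the Fos and Jun proteins that pair to form AP-1, and others encode phosphatases, RNA-decay factors and inhibitors that end the response. Heat shock genes encode chaperones that hold and refold damaged proteins. Their stress-inducible members are driven by the heat shock factor Hsf1 through repeated GAA units in their promoters, while constitutive members such as Hspa8 are made in all growing cells. Both families are widely used as a readout of the handling of tissue before RNA is taken.

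Promoter windows of 300 bases (250 before to 50 after a RefSeq transcription start, GRCm38.p6) matched 29 of the 36 members, and Egr1, Egr3, Fosl1, Hsp90aa1, Hspa8, Ier2 and Myc had no match. The 150 bases before the start are shown for the 5 members that rose in the Tie2-positive population and had a window. Capitals mark a motif that was searched on both strands, the heat shock element core GAANNTTC in Hspa1a, Hspa1b and Jun, the TATA box (TATAAA) in Fos and an EGR site (GCGGGGGCG, here on the opposite strand) in Nr4a1.

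Fos, chr12:85473740-85473889, plus strand: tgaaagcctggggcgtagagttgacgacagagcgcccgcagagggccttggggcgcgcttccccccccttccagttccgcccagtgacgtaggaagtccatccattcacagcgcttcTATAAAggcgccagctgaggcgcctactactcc

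Jun, chr4:95052223-95052372, minus strand: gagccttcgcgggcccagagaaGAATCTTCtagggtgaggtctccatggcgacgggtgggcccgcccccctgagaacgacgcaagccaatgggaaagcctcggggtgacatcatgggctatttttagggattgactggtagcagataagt

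Nr4a1, chr15:101266696-101266845, plus strand: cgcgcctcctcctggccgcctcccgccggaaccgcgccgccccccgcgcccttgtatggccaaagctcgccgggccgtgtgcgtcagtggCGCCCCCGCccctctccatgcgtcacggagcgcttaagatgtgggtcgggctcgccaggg

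Hspa1a, chr17:34972157-34972306, minus strand: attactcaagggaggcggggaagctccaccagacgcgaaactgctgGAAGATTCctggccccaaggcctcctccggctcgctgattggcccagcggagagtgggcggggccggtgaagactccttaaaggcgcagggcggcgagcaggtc

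Hspa1b, chr17:34959239-34959388, minus strand: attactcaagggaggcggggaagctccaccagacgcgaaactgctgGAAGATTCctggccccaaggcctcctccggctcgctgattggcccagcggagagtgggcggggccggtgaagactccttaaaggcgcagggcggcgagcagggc

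The windows of Hspa1a and Hspa1b were identical at 296 of 300 aligned bases (98.7%, no gap), and in both the motif lay at -104 to -97 from the start. GAANNTTC was in 6 of 10 windows of heat shock members (60%), from 5 of 6 genes (Dnaja1, Hspa1a, Hspa1b, Hspb1 and Hsph1). The Hsph1 windows overlap and share 1 such site. GAANNTTC was in 7.86% of all 32851 windows of the same length and 2 of 29 windows of immediate early members (Fosl2 and Jun). Its other arrangement, TTCNNGAA, searched after the first result was seen, was in Hsph1, before the start and again after it, where it overlapped GAANNTTC, and in 1 window of Egr2, against 8.52% of all windows. The EGR site was in 6 of 29 windows of immediate early members (20.7%), those of Dusp2, Fosb, Fosl2, Nr4a1, Socs3 and Zfp36. It was also in 1 of 10 windows of heat shock members (Dnaja1) and in 2.91% of all windows. The CArG box, the core of the serum response element, was in those of Egr2 and Zfp36 (1.63% of all windows), where 3 of the 4 Egr2 windows with a match overlap and share 1 site. The cyclic AMP response element TGACGTCA was in Btg2, Dusp1 and Maff (1.79% of all), and the AP-1 site TGANTCA in Zfp36l1 (7.81% of all). TATAAA was in 6 of 29 windows of immediate early members (20.7%) and 0 of 10 of heat shock members, against 13.6% of all windows. In Junb and Nfkbia it lay after the start, and in Nr4a2 at -164 to -159. A match is a description of letters in this window, and no binding was measured.

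The arrays of the Tie2-positive population were not alike. The gate antigen Tek (Tie2) was at 9.80 to 12.06 on the log2 scale in the Tie2-positive and 4.79 to 4.90 in the Tie2-negative arrays, and the median of 15 endothelial markers was at 9.12 to 11.10 against 5.58 to 6.06. The median of 12 of 14 listed neutrophil markers differed most, at 5.90, 11.27 and 13.27 in the Tie2-positive arrays (replicates 1, 2 and 3) beside 6.10, 7.23 and 8.06 in the Tie2-negative ones. Ptprc, which encodes CD45, was at 4.87, 9.95 and 11.23 on the same Tie2-positive arrays and at 9.42 to 10.41 in the Tie2-negative arrays, although both gates excluded CD45. The median of 8 megakaryocyte markers was 6.78 to 10.02 in the Tie2-positive and 5.60 to 5.82 in the Tie2-negative arrays, that of 10 erythroid markers 5.40 to 6.98 against 10.30 to 12.24, and that of 11 B-lineage markers 5.37 to 5.74 against 7.85 to 10.15. Medians of the macrophage (13 genes), skeletal and stromal (12) and T and NK (8) markers lay between 5.05 and 6.27 on every array, below the median of all gene values (6.55). The 3' minus 5' difference of the Actb and Gapdh control probe sets, a measure of RNA length, was 1.82 to 2.00 in the Tie2-negative and 1.44 to 1.87 in the Tie2-positive arrays. In such mixed samples a change in the number of cells of a type and a change in the RNA per cell cannot be told apart, and the part of other cell types in the results was not tested beyond the values given here and below.

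A core of immediate early genes and the inducible HSP70 pair were higher in the Tie2-positive population, while most other heat shock genes were not. Of 28 immediate early members, 5 rose and 0 fell in limma at an adjusted p under 0.05: Fos, Jun, Egr1, Nr4a1 and Ier2. Of 8 heat shock members, 2 rose and 0 fell, Hspa1a and Hspa1b. Over all 18193 genes 4.86% were called higher and 2.53% lower. The members were chosen with earlier results of these data known, so these counts describe them and are no independent check. All 3 Tie2-positive values lay above all 3 Tie2-negative values in 13 immediate early and 4 heat shock members, against 15.2% of all genes, and below them in 3 and 1, against 23.9% of all genes. The median log2 change (Tie2-positive minus Tie2-negative, as for all changes here) was 0.89 over the immediate early members and 0.07 over the heat shock members, beside -0.11 over all genes. At an unadjusted p under 0.05 limma gave 13 immediate early members higher and 3 lower, and 3 heat shock members higher and 1 lower, beside 13.0% of all genes higher and 15.6% lower.

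**Figure D1:**
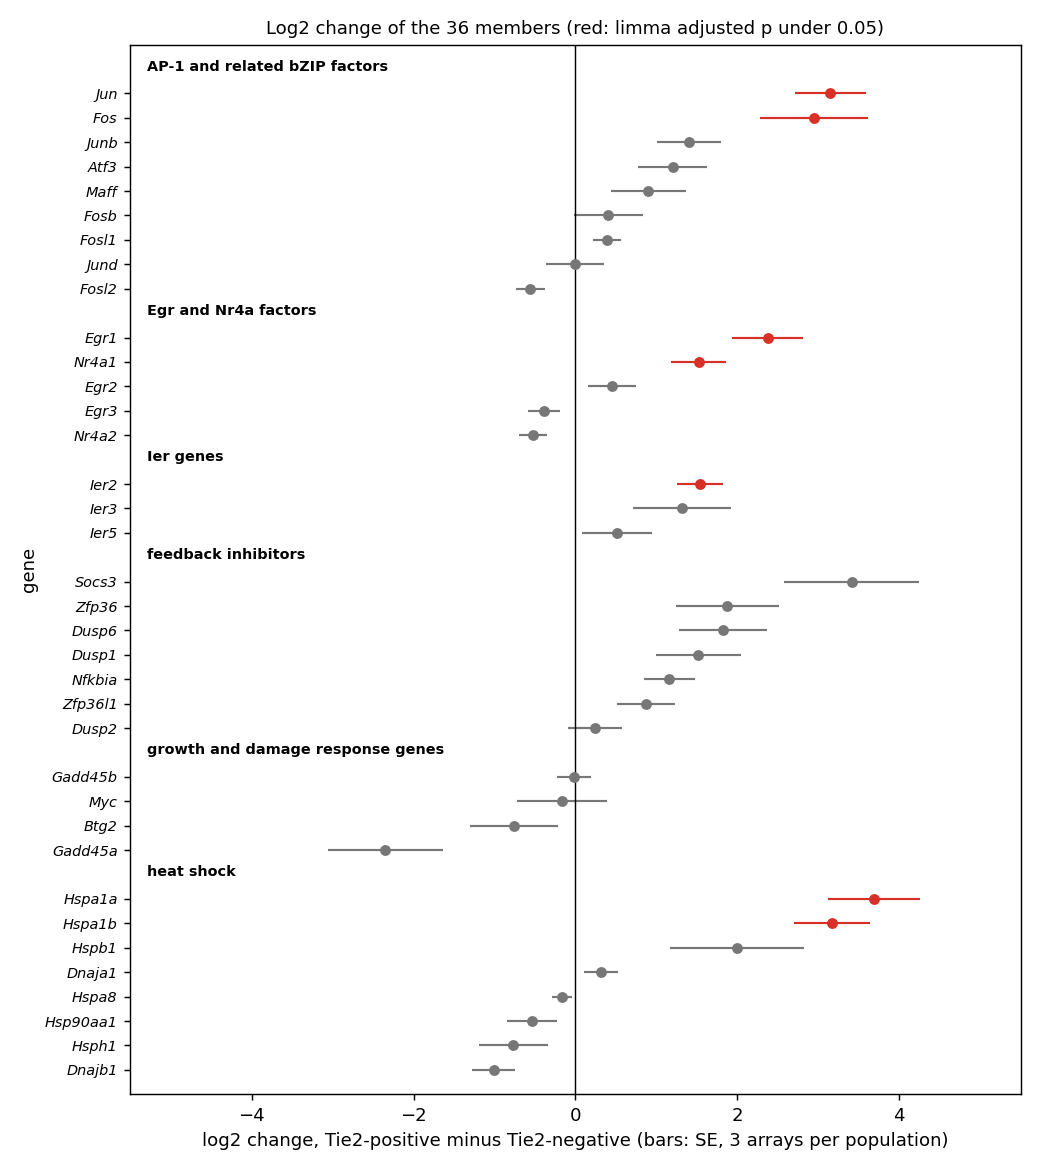
Log2 change (x axis, Tie2-positive minus Tie2-negative) of the 36 members (y axis, grouped by role); points are limma estimates, bars are SE with 3 arrays per population, and red marks an adjusted p under 0.05. The 7 red genes have changes between 1.52 and 3.69, and the growth and damage response genes lie below 0, with Gadd45b at -0.01.

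These calls rested on few arrays, as did calls over all genes, which numbered 1345 in either direction. The immediate early count of 5 was 0 without Tie2-negative replicate 1 or 2, 1 (Jun) without Tie2-negative replicate 3 or Tie2-positive replicate 3, and 3 (Jun, Egr1 and Ier2) without Tie2-positive replicate 2. The heat shock count of 2 was 0 without Tie2-negative replicate 1 or 2 or Tie2-positive replicate 2. Over all 18193 genes limma called 0 without Tie2-negative replicate 1 or 2, 378 without Tie2-negative replicate 3, 504 without Tie2-positive replicate 2 and 1085 without Tie2-positive replicate 3. Without Tie2-positive replicate 1 the immediate early count went up to 7, with Dusp6 and Socs3 added. The calls over all genes went up there as well, to 2148 (8.22% higher and 3.58% lower). At an unadjusted p under 0.05, limma gave 12 and 10 immediate early members higher without Tie2-negative replicate 1 or 2, and 2 heat shock members higher in each of those fits and without Tie2-positive replicate 2, where the share of all genes was 9.89%, 10.5% and 11.4%. A fit of Tie2-positive replicate 1 alone, whose neutrophil marker median (5.90) lay below that of every Tie2-negative array, took the scatter of the Tie2-negative arrays for both populations. The immediate early count there was 14 higher and 2 lower and the heat shock count 3 higher and 1 lower, while the calls over all genes also went up, to 3637 (11.0% higher and 9.03% lower). The log2 changes in that fit were 3.07 for Fos, 2.96 for Jun, 2.68 for Egr1, 1.37 for Nr4a1, 1.84 for Ier2, 2.82 for Hspa1a and 2.88 for Hspa1b.

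Among the AP-1 proteins and related leucine zipper factors, Fos and Jun rose and the other 7 did not pass. Fos, the partner that AP-1 gains on stimulation, was at 7.92, 7.75 and 9.52 in Tie2-negative replicates 1, 2 and 3 and at 11.46, 10.21 and 12.37 in Tie2-positive replicates 1, 2 and 3. The populations did not overlap, but Tie2-negative replicate 3 lay within 1 log2 unit of the lowest Tie2-positive array. Its log2 change was 2.95 ± 0.67 (SE, n = 3 per population; limma adjusted p = 0.0473, and 0.0217 to 0.158 over the alternatives). Jun, the partner that can also pair with itself, was at 6.02, 6.54 and 7.17 in the Tie2-negative and at 9.53, 9.13 and 10.51 in the Tie2-positive arrays. Every Tie2-positive array was thus well above every Tie2-negative one, and the log2 change was 3.15 ± 0.44 (SE; limma adjusted p = 0.0148, and 0.00379 to 0.0766 over the alternatives). Its other probe set gave 2.57.

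Junb, which antagonises or replaces Jun in AP-1, was at 5.79, 6.14 and 6.68 against 8.30, 6.92 and 7.60 in Tie2-positive replicates 1, 2 and 3. The populations did not overlap, and the log2 change of 1.40 ± 0.40 (SE, n = 3 per population) did not pass (limma adjusted p = 0.0804). Atf3, a stress-induced repressor, was at 6.26, 5.83 and 5.96 against 8.22, 6.66 and 6.78, so that Tie2-positive replicate 1 stood above the other two of its population (1.20 ± 0.43, SE; adjusted p = 0.128). Maff, a small Maf protein without an activation domain, gave 0.90 ± 0.47 (SE), with values from 5.89 to 6.41 and from 6.37 to 8.18 that overlapped. Fosb and Fosl1, further Fos proteins, were below the median of all gene values on every array, at most 6.29 and 5.95, and gave 0.41 ± 0.42 and 0.39 ± 0.17 (SE). Jund, the Jun protein that resting cells already hold, was at 9.39 to 10.49 in the Tie2-negative and 9.81 to 10.50 in the Tie2-positive arrays. Its change was 0.00 ± 0.36 (SE), while a second, dim probe set fell by 0.60 (adjusted p = 0.0440 over all probe sets). Fosl2 gave -0.56 ± 0.18 (SE; adjusted p = 0.107) in the probe set of the rule, with 7.04 to 7.16 against 6.33 to 6.69, but its other probe set went the opposite way, as described with the probe sets.

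**Figure D2:**
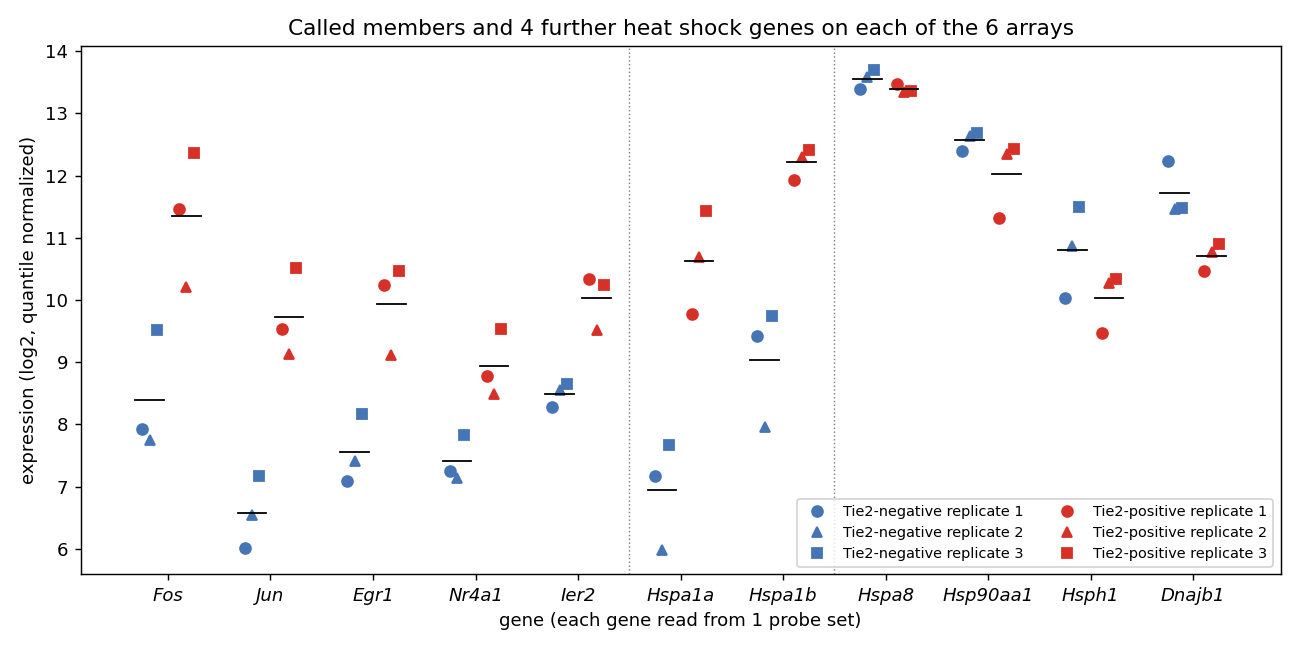
Log2 expression (y axis) of the 7 members that rose and of Hspa8, Hsp90aa1, Hsph1 and Dnajb1 (x axis) on each of the 6 arrays; blue is Tie2-negative, red Tie2-positive, symbols are replicates and bars are means. All red points lie above all blue points for the first 7 genes, and below them for Dnajb1; levels of different genes come from different probes and cannot be set against each other.

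Of the Egr zinc finger factors and Nr4a nuclear receptors, Egr1 and Nr4a1 rose and the other 3 did not pass. Egr1, a serum-induced activator, was at 7.10, 7.42 and 8.17 in Tie2-negative and at 10.24, 9.11 and 10.46 in Tie2-positive replicates 1, 2 and 3. The populations were separate, and the log2 change was 2.38 ± 0.44 (SE, n = 3 per population; limma adjusted p = 0.0291, and 0.00743 to 0.118 over the alternatives). Nr4a1, a receptor without a known natural ligand that acts as soon as it is made, was at 7.25, 7.14 and 7.83 against 8.78, 8.49 and 9.53. It rose by 1.52 ± 0.34 (SE; adjusted p = 0.0457, and 0.0234 to 0.153 over the alternatives). As for Fos, Jun and Egr1, Tie2-positive replicate 3 was the highest array and Tie2-negative replicate 3 the highest of its population. Egr2 was at 4.64 to 5.48 and 5.10 to 6.00, below the median of all gene values on every array (0.45 ± 0.30, SE). Egr3 gave -0.39 ± 0.20 (SE), with overlapping values of 7.33 to 7.64 and 7.04 to 7.36. Nr4a2 gave -0.52 ± 0.18 (SE; adjusted p = 0.119) in the probe set of the rule, with 6.39 to 6.70 against 5.90 to 6.23. Most of its other probe sets went the opposite way, as described with the probe sets.

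Among the Ier genes, whose name stands for immediate early response, only Ier2 passed. Ier2, a small nuclear protein, was at 8.28, 8.56 and 8.65 in the Tie2-negative and at 10.34, 9.51 and 10.24 in the Tie2-positive arrays. The Tie2-negative arrays were close together (SD 0.19), and the rise was 1.54 ± 0.28 (SE, n = 3 per population; limma adjusted p = 0.0280, and 0.00707 to 0.113 over the alternatives). Ier3, an apoptosis regulator, gave 1.31 ± 0.61 (SE; adjusted p = 0.206), with overlapping values of 6.72 to 8.51 and 8.02 to 9.81. Ier5, a protein that acts on Hsf1, gave 0.51 ± 0.43 (SE; adjusted p = 0.456), with 8.20 to 8.80 against 8.25 to 9.91.

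The genes that end the response had positive changes in 7 of 7 cases, of which 5 had populations that did not overlap and 0 passed in limma (6 at an unadjusted p under 0.05). Over all genes 39.1% had a positive change, 15.2% lay above without overlap and 13.0% were higher at that unadjusted p. Socs3, which blocks cytokine receptor signalling through the Jak kinases, was at 5.01, 4.84 and 5.41 in Tie2-negative and at 10.56, 7.13 and 7.80 in Tie2-positive replicates 1, 2 and 3. Tie2-positive replicate 1 stood far above the other two, and the spread within the population (3.43) was the largest of the 36 members. The log2 change was 3.41 ± 0.83 (SE, n = 3 per population; limma adjusted p = 0.0566), and it passed in 5 of 17 alternatives, among them without Tie2-positive replicate 1, where it was 2.38 (adjusted p = 0.00302, and 0.000148 to 0.403 over the alternatives). Without probe sets of the x_at and s_at types, which can bind several transcripts, Socs3 was read from another probe set and gave 0.52 (adjusted p = 0.403).

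Zfp36 (tristetraprolin), which binds AU-rich elements and speeds the decay of mRNAs, was at 6.43, 7.53 and 7.50 against 9.29, 7.69 and 10.11 in Tie2-positive replicates 1, 2 and 3. Tie2-positive replicate 2 lay just above the Tie2-negative arrays, and the change was 1.88 ± 0.64 (SE, n = 3 per population; limma adjusted p = 0.119). Dusp6, a phosphatase that turns off ERK, was at 7.02, 7.48 and 6.48 against 10.01, 8.37 and 8.08 (1.82 ± 0.54, SE; adjusted p = 0.0882). Here Tie2-positive replicate 1 was the highest, and without it Dusp6 passed with a change of 1.23 (adjusted p = 0.0498, and 0.00361 to 0.210 over the alternatives). Nfkbia, the inhibitor that holds NF-kappaB in the cytoplasm, was at 10.62, 11.14 and 10.28 against 12.27, 11.37 and 11.88 (1.16 ± 0.31, SE; adjusted p = 0.0723), and it passed once the medians of the arrays were made equal (adjusted p = 0.0478, and 0.0250 to 0.184 over the alternatives). Dusp1, a phosphatase of p38 and JNK, gave 1.52 ± 0.53 (SE; adjusted p = 0.123), but Tie2-negative replicate 1 (10.55) lay above Tie2-positive replicate 2 (10.28). Zfp36l1, a relative of Zfp36, gave 0.87 ± 0.36 (SE), with 9.86 to 10.32 against 10.35 to 11.72. Dusp2, an ERK phosphatase of leukocytes, gave 0.24 ± 0.33 (SE) with overlapping values of 6.69 to 7.44 and 6.70 to 7.69.

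The 4 genes of growth and damage responses had changes below 0, and none passed in limma (1 at an unadjusted p under 0.05). Over all genes only 39.1% had a positive change, and 15.6% were lower at that unadjusted p. Gadd45a, a growth arrest protein induced by DNA damage, was at 10.10, 8.22 and 8.04 in Tie2-negative and at 5.39, 6.38 and 7.53 in Tie2-positive replicates 1, 2 and 3. The populations did not overlap, and Tie2-negative replicate 1 and Tie2-positive replicate 1 were the extremes, with a change of -2.35 ± 0.71 (SE, n = 3 per population; limma adjusted p = 0.0928). Its relative Gadd45b gave -0.01 ± 0.21 (SE), with all 6 arrays between 6.89 and 7.43. Myc, a driver of cell growth, was at 8.69 to 9.56 in the Tie2-negative arrays and at 7.70, 9.65 and 9.58 in Tie2-positive replicates 1, 2 and 3 (-0.17 ± 0.56, SE). Tie2-positive replicate 1 was thus the lowest array for Myc and replicates 2 and 3 the highest. Btg2, which slows the cell cycle, gave -0.76 ± 0.54 (SE) with overlapping values of 8.42 to 10.35 and 8.15 to 9.37.

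Heat shock genes did not move together. Hspa1a, an inducible HSP70, was at 7.18, 5.98 and 7.68 in Tie2-negative and at 9.77, 10.69 and 11.44 in Tie2-positive replicates 1, 2 and 3. The populations were separate by 2.09 log2 units, and the rise was 3.69 ± 0.57 (SE, n = 3 per population; limma adjusted p = 0.0182, and 0.00135 to 0.0855 over the alternatives). Hspa1b, its neighbour on the chromosome with the near-identical promoter shown above, was at 9.42, 7.96 and 9.74 against 11.93, 12.29 and 12.41, with a rise of 3.17 ± 0.46 (SE; adjusted p = 0.0162, and 0.00167 to 0.0697 over the alternatives). Its other probe sets gave 3.19 and 3.37. The 2 genes are near-identical copies, so their probe sets may detect each other's transcript and their values are not independent. In both, the order of the arrays was the same: Tie2-positive replicates 3, 2 and 1, then Tie2-negative replicates 3, 1 and 2. The Tie2-positive arrays came in the same order in the neutrophil marker median (13.27, 11.27 and 5.90). The Tie2-negative arrays did not, as their order there was replicates 3, 2 and 1 (8.06, 7.23 and 6.10). In Tie2-positive replicate 1 both genes were above every Tie2-negative array, and the part of neutrophil RNA in these values was not tested.

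Of the other 6 heat shock members none passed, and 4 had negative changes, where only 39.1% of all genes had a positive one. Hspb1, the small heat shock protein HSP27, was at 7.12, 7.67 and 6.84 in Tie2-negative and at 11.22, 8.56 and 7.84 in Tie2-positive replicates 1, 2 and 3. Tie2-positive replicate 1 was far above the other two, an order that the endothelial marker median shared (11.10, 10.35 and 9.12), and the change was 2.00 ± 0.83 (SE, n = 3 per population; limma adjusted p = 0.170). Dnajb1, a J-domain partner that recruits HSP70 and is itself stress-inducible, was at 12.23, 11.46 and 11.48 against 10.47, 10.77 and 10.89. All Tie2-positive arrays lay below all Tie2-negative arrays, the opposite of Hspa1a and Hspa1b, with a change of -1.01 ± 0.26 (SE; adjusted p = 0.0646). The change passed in 1 of 17 alternatives, array weights (adjusted p = 0.0150, and 0.0150 to 0.143 over the alternatives), where 13.5% of all genes were called lower. Hsph1, an HSP110 that exchanges nucleotide on HSP70, gave -0.77 ± 0.42 (SE; adjusted p = 0.272) with overlapping values of 10.03 to 11.50 and 9.48 to 10.35. Hsp90aa1, the inducible HSP90, gave -0.54 ± 0.31 (SE; adjusted p = 0.283), and Tie2-positive replicate 1 (11.32) lay below the other 5 arrays (12.34 to 12.68). Hspa8, the constitutive HSC70, was high and even on all arrays, from 13.34 to 13.70, with -0.17 ± 0.12 (SE). Dnaja1, a further J-domain partner, was at 10.95 to 11.54 against 11.57 to 11.78 (0.31 ± 0.21, SE; adjusted p = 0.349).

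Array by array, the immediate early members followed single arrays as well as the populations. When each gene was set against its own mean over the 6 arrays, the median deviation of the 28 immediate early members took the values 1.04, 0.03 and 0.48 on the Tie2-positive arrays (replicates 1, 2 and 3) and -0.23, -0.41 and -0.56 on the Tie2-negative ones. Over all genes the same medians lay between -0.07 and 0.05. Tie2-positive replicate 2 was the lowest of its population for 18 of the 28 genes (64.3%), against 25.2% of all genes. Tie2-positive replicate 1 exceeded replicate 2 in 23 of 28 genes (82.1%, against 50.5% of all genes), and replicate 3 exceeded replicate 2 in 21 (75.0%, against 46.9% of all genes). Within the Tie2-positive population the genes that peaked in replicate 1 numbered 14 (50%, against 42.1% of all genes) and included Socs3, Dusp6, Atf3, Maff, Junb, Nfkbia and Zfp36l1. Those that peaked in replicate 3 numbered 12 (42.9%, against 30.5%) and included Fos, Fosb, Jun, Egr1, Nr4a1 and Zfp36. The endothelial marker median was highest in replicate 1 (11.10, against 10.35 and 9.12) and the neutrophil marker median in replicate 3 (13.27), and their part in these peaks was not tested.

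The median range within the Tie2-positive population was 1.36 over the immediate early members, against 0.44 over all genes, and 18 of 28 spanned over 1 log2 unit (64.3%, against 21.3% of all genes). In the Tie2-negative population it was 0.79 against 0.41, and 9 of 28 spanned over 1 (32.1%, against 8.87%). Tie2-negative replicate 1 was the highest of its population for 12 genes (42.9%, against 33.6% of all genes), among them Gadd45a, Btg2, Dusp1 and Ier3, and replicate 3 for 9 (32.1%, against 35.9%), which held all 5 genes that rose. For the heat shock members the median deviation lay between -0.46 (Tie2-negative replicate 1) and 0.15 (Tie2-positive replicate 1). Their ranges within a population had medians of 0.80 (Tie2-negative) and 0.68 (Tie2-positive). Tie2-positive replicate 3 was the highest of its population in 5 of 8 (against 30.5% of all genes) and Tie2-negative replicate 3 in 5 of 8 (against 35.9%), both times including Hspa1a, Hspa1b, Hsph1 and Hsp90aa1.

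**Figure D3:**
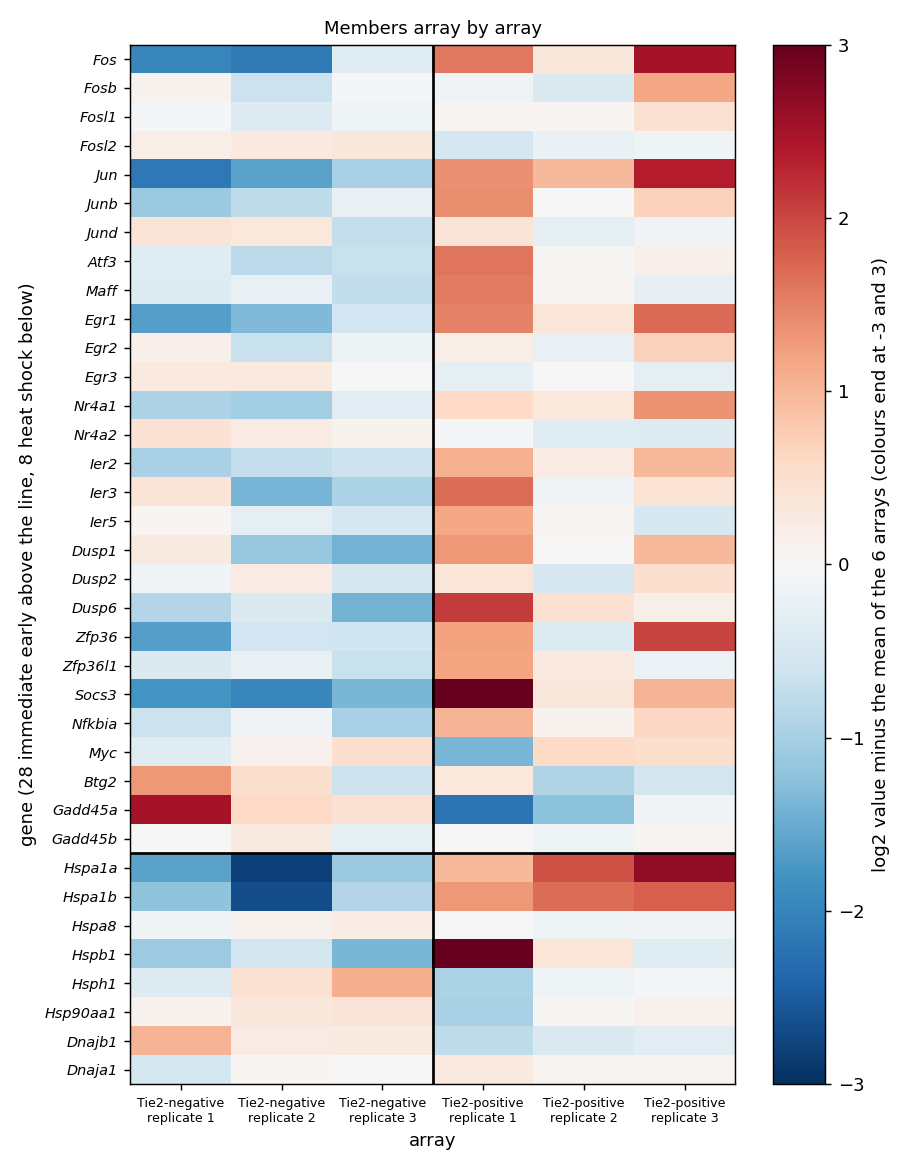
Each cell is a member's log2 value on 1 array minus that gene's mean over the 6 arrays (colour, red above and blue below the mean; columns are arrays, rows genes). Tie2-positive replicates 1 and 3 are red for most immediate early genes and replicate 2 is paler, while in the heat shock block the Hspa1a and Hspa1b rows are red in all 3 Tie2-positive arrays.

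Some members were measured by several probe sets that did not give the same value. The 28 immediate early members had 51 probe sets, with several for 13 genes. In 6 of these 13 the changes differed in sign, and in 5 (Fosl2, Ier5, Nfkbia, Nr4a2 and Socs3) they spanned over 1 log2 unit. Fosl2, a Fos protein of bone and other tissues, stood out: its second probe set was at 3.98, 4.42 and 4.96 in the Tie2-negative and at 9.35, 7.80 and 8.24 in the Tie2-positive arrays, a rise of 4.01 (limma adjusted p = 0.0103 over all probe sets). The mean of both probe sets also rose, by 1.73 (limma adjusted p = 0.0185). All other alternatives read Fosl2 from the first probe set and gave a fall, with adjusted p-values up to 0.239 (-0.39, median centring). With array weights this fall passed (-0.50, adjusted p = 0.0297), where 13.5% of all genes were called lower. Nr4a2 had 6 probe sets with changes from -0.52 to 1.43, of which 1 was called higher (1.25, adjusted p = 0.0396). Nfkbia had 5, from -0.01 to 2.15, of which the one with 2.15 was called higher (adjusted p = 0.0252). Socs3 had 3, at 3.41, 2.95 and 0.52. Tested over all 45037 probe sets, where 3.39% were called higher, 7 probe sets of 6 immediate early genes (Fosl2, Jun, Egr1, Nr4a2, Ier2 and Nfkbia) and 4 of Hspa1a and Hspa1b were called higher. Fos and Nr4a1 did not pass there. The 8 heat shock members had 22 probe sets, and only those of Hspa8 spanned over 1 log2 unit.

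**Figure D4:**
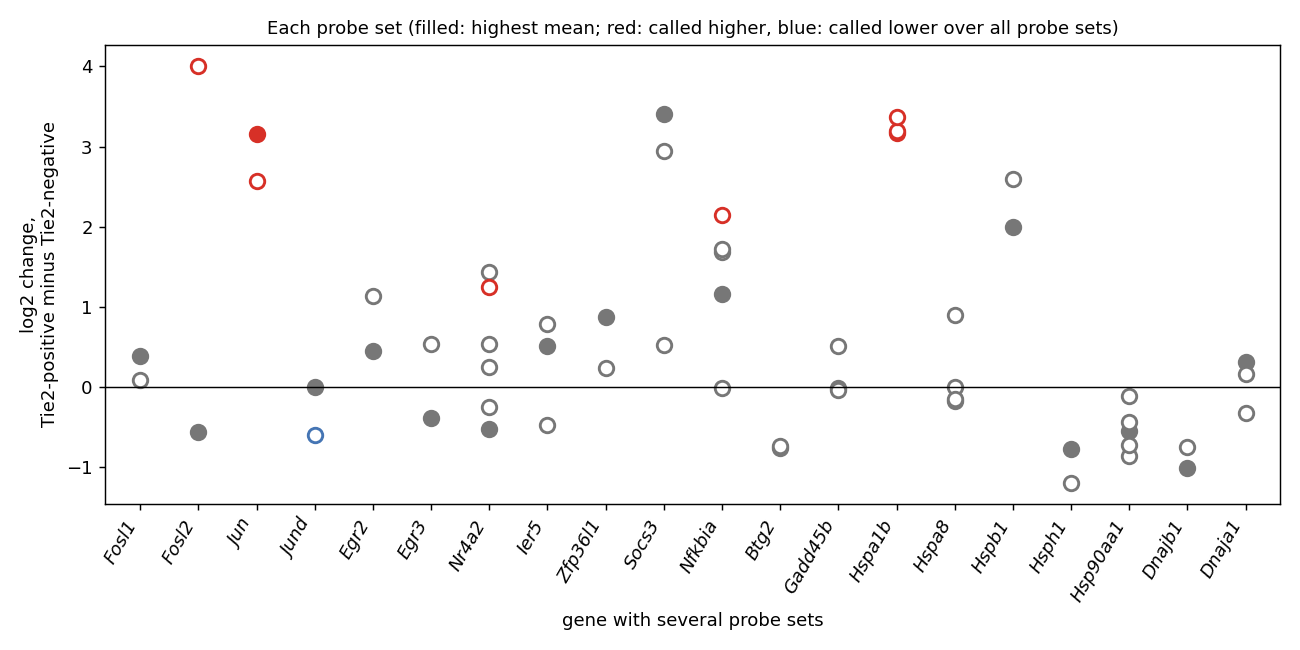
Log2 change (y axis, Tie2-positive minus Tie2-negative) of every probe set of the 20 members with several (x axis); filled points have the highest mean and were used, red and blue mark probe sets called higher and lower over all probe sets. The open red point of Fosl2 at 4.01 lies far from its filled point at -0.56, while the 3 probe sets of Hspa1b lie between 3.17 and 3.37.

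Other genes of the same responses were read from lists drawn up by function. The lists were chosen with earlier results of these data known, so their counts describe these genes and are no independent check of the members. Of 42 further immediate early genes, 9 rose (21.4%, against 4.86% of all genes) and 0 fell (2 lower at an unadjusted p under 0.05), with a median log2 change of 0.63 and Tie2-positive values all above the Tie2-negative ones in 19 (45.2%, against 15.2% of all genes). The 3 taken by size were Cebpd, a C/EBP factor (4.03 ± 0.58, SE, n = 3 per population; limma adjusted p = 0.0154), Rhob, a short-lived GTPase (3.98 ± 0.44, SE; adjusted p = 0.0104), and Klf4, a zinc finger factor of endothelium and epithelium (3.84 ± 0.68, SE; adjusted p = 0.0262). Rhob was at 5.72, 6.28 and 6.25 in the Tie2-negative and at 11.05, 9.45 and 9.70 in the Tie2-positive arrays. Of 21 measured genes upstream of the response (30 listed, the others not analysed here), 2 rose (9.52%, against 4.86% of all genes) and 1 fell (4.76%, against 2.53%), with a median change of 0.18. Elk3, a ternary complex factor that binds beside the serum response factor, rose by 3.79 ± 0.53 (SE; adjusted p = 0.0148), and Stat3, which mediates IL-6 family signals and induces Socs3, by 1.53 ± 0.27 (SE; adjusted p = 0.0269). Mapk9, which encodes the kinase JNK2, fell by 0.93 ± 0.21 (SE; adjusted p = 0.0483).

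Of 39 measured further heat shock genes and chaperones (41 listed), 2 rose (5.13%, against 4.86% of all genes) and 1 fell (2.56%, against 2.53%), with a median change of -0.29. These shares lie near those of all genes. Serpinh1, the collagen chaperone HSP47, rose by 3.82 ± 0.61 (SE; limma adjusted p = 0.0199, with 3 arrays per population), and Dnajb9, a J-domain partner of BiP, by 1.47 ± 0.28 (SE; adjusted p = 0.0320). Dnaja4, a J-domain protein of the cytoplasm, fell by 2.34 ± 0.38 (SE; adjusted p = 0.0209), from 7.65 to 9.16 in the Tie2-negative to 5.84 to 6.10 in the Tie2-positive arrays. The Tie2-positive values of this list lay all above the Tie2-negative ones in 7 genes and all below in 7 (17.9% each, against 15.2% and 23.9% of all genes). Each of the 9 genes named from these lists lost its call without Tie2-negative replicate 1 or 2, with adjusted p-values up to 0.149 (Mapk9) over the alternatives, and Mapk9 kept its call in 6 of 17.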

How the data were processed

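The authors deposited 1 log2 value per probe set and array for 6 Affymetrix mouse arrays scanned with GCOS 1.1.1, per the labels' protocols, from RNA amplified in a pair of rounds. That the scale is log2 was read from the values (2.56 to 14.78), and no source used here states their summary or normalization. Values were quantile normalized, since 75th percentiles of the arrays differed by up to 0.27. The 64 control probe sets were not tested. Gene names came from the platform's annotation (34945 probe sets with 1 symbol, 932 with several and 9160 with none), checked by gene ID against RefSeq. Genes (18193) were fitted with limma 3.58.1 in R 4.3.3 (eBayes with a mean trend, two-sided, Benjamini-Hochberg over all genes, threshold 0.05). Precision is limited by how few arrays there are. The procedure was tested on simulated data.

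Every member is named. Values on all arrays are given for members that passed, that did not overlap with a change of at least 1, or that spanned at least 3 within a population. From each further list up to 3 called genes with the largest change and a mean above the median of all gene values are named. The members and lists were chosen with earlier results of these data known. The alternatives tried: a replicate block, values as deposited, median centring, a filter at the 40th percentile, the mean of all probe sets, no x_at or s_at probe sets, all probe sets tested, no trend, robust estimation, array weights, and arrays left out. Protein identity of the HSP70 copies, which had been planned, was not analysed here. Promoters were aligned with Biopython 1.88.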

Additional observations from a re-analysis of the deposited data

How the results depend on the processing

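The count of 5 immediate early members called higher was 0 with the replicate block (14 at an unadjusted p under 0.05 in limma), 3 with all probe sets tested, 8 with array weights, 14 with Tie2-positive replicate 1 as the lone array of its population, and 0 to 7 when single arrays were left out. The count called lower (0) was 3 with array weights and 2 with the lone array. For heat shock members the count called higher (2) was 0 with the block (3 at an unadjusted p under 0.05) and 0 to 2 when single arrays were left out, and the count called lower (0) was 1 with array weights and 1 with the lone array. Over all genes, array weights called 12% higher and 13.5% lower, beside 4.86% and 2.53% in the comparison as reported. With all probe sets tested, 4.47% of genes were called higher and 2.06% lower. When single arrays were left out, 0 to 8.22% of all genes were called higher. With the block, 13.1% of all genes were higher at an unadjusted p under 0.05 in limma. The replicate numbers were not taken to pair the samples, but a pairing is not excluded. Deviations of same-numbered samples correlated at 0.14, 0.0050 and 0.19. Only Tie2-positive replicate 2 correlated better with another number (0.055 with Tie2-negative replicate 3, against 0.0050). With the block limma called 0 of 18193 genes (smallest adjusted p = 0.0521).

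The median deviation of the heat shock members over the mean of all probe sets was -0.12, 0.16 and 0.12 in the Tie2-positive arrays (replicates 1, 2 and 3), and without x_at and s_at probe sets it was 0.0038 in replicate 1. Of 609 single-gene values of the 36 members under the alternatives, 22 changed sign, in 9 genes, none of them called in the comparison as reported. The log2 change of Jund was 0.087 as deposited, 0.13 with median centring, 0.39 with the lone array and -0.36 to 0.19 when single arrays were left out. That of Gadd45b was 0.16 as deposited, 0.20 with median centring, 0.16 over the mean of probe sets, 0.0092 with the lone array and -0.15 to 0.12 when single arrays were left out. Over the mean of all probe sets it was 1.73 for Fosl2, 0.074 for Egr3, 0.45 for Nr4a2 and 0.15 for Hspa8. With array weights it was -0.28 for Dusp2 and 0.35 for Myc. When single arrays were left out it was -0.50 to 0.47 for Myc and -0.068 to 0.72 for Fosb. Among the values that changed sign, only that of Fosl2 passed the threshold (limma adjusted p = 0.0185). The other alternatives of Fosl2 were falls, with adjusted p-values from 0.0297 (array weights) to 0.239 (median centring). The cause of these shifts was not tested. No detection calls were used, so levels near the bottom of the scale may be background.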
